A study of Mus musculus with 2 samples.

Results

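The genes described here are the calponins Cnn1, Cnn2 and Cnn3, the transgelins Tagln, Tagln2 and Tagln3, smoothelin (Smtn) and caldesmon (Cald1) of the mouse. They were taken as all probe sets of the array whose only gene symbol in the platform annotation is one of these 8 names, which gave 19 of the 34945 probe sets with 1 symbol and 8 of the 18193 genes. No probe set with several symbols named a member. Cnn1, Tagln, Smtn and Cald1 were set apart as the smooth muscle members, and Cnn2, Cnn3, Tagln2 and Tagln3 as their paralogs of other expression.

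Esophagus was taken from embryos at E18.5, shortly before birth, for RNA. The wild-type sample is labelled BALB/c, and the second sample is labelled as BALB/c with null alleles of both Myf5 and Myod1, the transcription factor genes that commit cells to skeletal muscle. Each genotype had 1 Affymetrix array and no replicate, so no test between genotypes was possible, no p-value is given, and each difference is between these 2 RNA samples. The number and sex of the embryos behind each sample were not stated in what was used here. The series title names the question, the replacement of smooth by striated muscle as the esophagus develops.

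Calponin, transgelin, smoothelin and caldesmon bind actin filaments. In smooth muscle, which lacks the troponin complex, calponin and caldesmon lie along the thin filament and inhibit the actin-activated ATPase of myosin, and calcium with calmodulin and phosphorylation relieve this inhibition. Cnn1, Tagln (also called SM22 alpha) and Smtn are textbook markers of differentiated smooth muscle, and many genes of this kind are driven by serum response factor with its coactivator myocardin through a DNA element called the CArG box. Cnn2, Cnn3 and Tagln2 are made in many cell types, Tagln3 is known from neurons, and Cald1 gives a long smooth muscle form and shorter forms found in most cells.

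The values are MAS5 signals, a per-probe-set brightness that can be compared between arrays for 1 probe set but not between probe sets. The means of the arrays after trimming both ends were nearly equal, but how the authors scaled the signals was not stated. A low-signal limit of 489, which is the median over the non-control probe sets, stood in for detection calls. Lower signals were set to this limit, then the log2 ratio of the array labelled null over wild type was taken, and a probe set below it on both arrays was treated as not measured. The spread among the log2 ratios of a gene's own probe sets was 0.56 (SD) when 14307 probe sets from 5455 genes were pooled. This is the only error that can be had here, and it leaves out all variation between animals. A ratio at least 2-fold either way is called 2-fold apart.

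Myf5 was 8.22-fold lower on the second array (4072 in wild type, 496 in the null). Myod1 differed by 1.18-fold (2001 in wild type, 1698 in the null). No position of the probes relative to the deleted parts was at hand, so Myod1 signal does not check the label, and the second array is called the array labelled null throughout. All 7 skeletal muscle markers read at least 2-fold lower on it (median log2 ratio -6.22), against 5.36% of all measured genes. Their summed signal was 325500 in wild type and 3339 on the array labelled null. The 3' to 5' signal ratio of the control probe sets, which tracks RNA integrity, was 12.6 for beta-actin and 10.5 for Gapdh in wild type. In the sample labelled null these ratios were 14.2 and 6.96. On both arrays the 3' control signal was thus many times the 5' signal, and the Gapdh ratio differed between them. Which member probe sets this affects could not be read without probe positions. The part of RNA integrity in the ratios below was not tested.

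Of the 8 genes, 7 were measured, and 5 of these read lower and 2 higher on the array labelled null. The lower ones were Cnn1, Tagln, Cnn2, Cnn3 and Tagln2, and the higher ones Smtn and Cald1. Only Tagln2 was at least 2-fold apart (lower), and 0 members were 2-fold higher. Of all 13315 measured genes 5.36% passed 2-fold downwards and 6.01% upwards, and 43.4% had a log2 ratio below 0. Of the 2898 measured genes with a wild-type signal of at least 5000, 62.7% were below 0 (median log2 ratio -0.14), with 260 at least 2-fold lower and 38 higher. Of the members, 6 reached that signal and 5 of these were below 0, a share to be read against 62.7%. Of the 295 measured genes with at least 40000 in wild type, 44.1% were below 0. The median log2 ratio of the 7 members was -0.47, against 0.086 for all measured genes. By probe set, 16 of the 19 were measured, of which 13 read lower and 3 higher, with 2 at least 2-fold lower. Of all measured probe sets with 1 symbol 4.94% passed 2-fold downwards, 5.94% upwards, and 41.7% were below 0. Probe sets of 1 gene are not independent, so these 16 values stand for 7 genes.

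**Figure D1:**
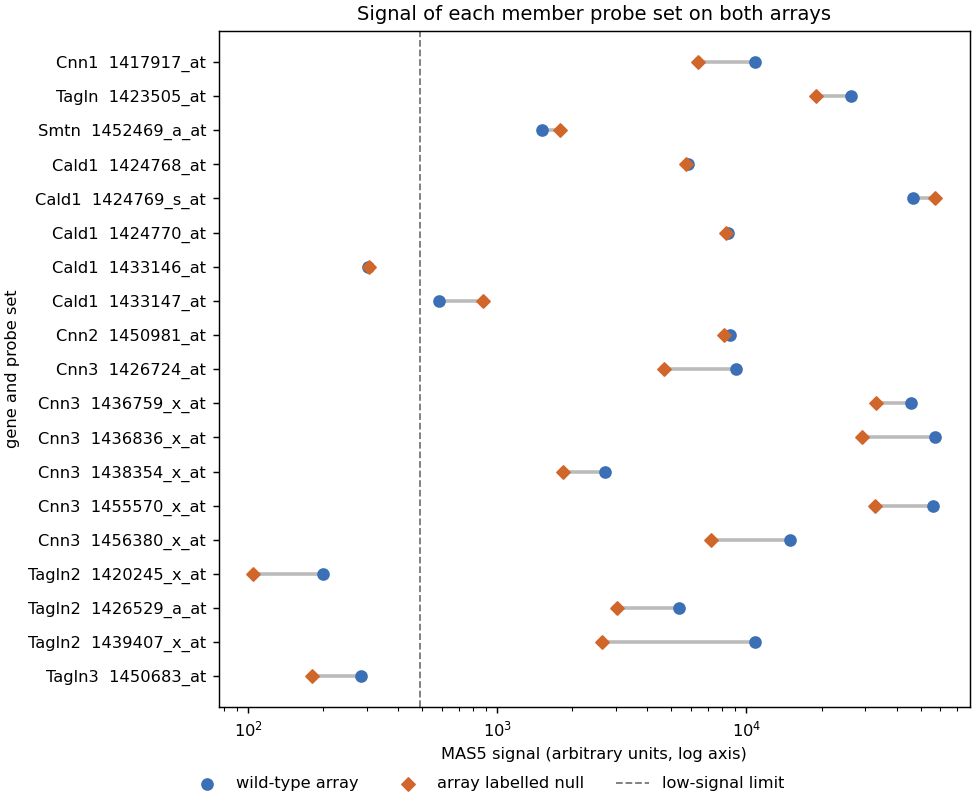
MAS5 signal (log axis) of each of the 19 member probe sets in wild type (circles) and the array labelled null (diamonds), 1 array each, with the low-signal limit of 489 as a dashed line. All 6 Cnn3 probe sets lie lower on the array labelled null, the Cnn2 points nearly coincide, and 3 probe sets lie left of the limit on both arrays.

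The smooth muscle members did not share a direction. Cnn1, basic calponin of differentiated smooth muscle, read 10808 in wild type and 6385 on the array labelled null at its 1 probe set. This is 1.69-fold lower (log2 ratio -0.76), a ratio below that of all but 8.75% of measured genes. Its size is more than 1 SD of the spread between probe sets of 1 gene (SD 0.56), which is no cutoff for a difference between genotypes. Tagln, an actin-bundling calponin relative abundant in smooth muscle, read 26359 and 19059, 1.38-fold lower (log2 ratio -0.47) and within that spread. A ratio lower than that of Tagln was found for 17.2% of measured genes. Both genes have 1 probe set, so no second measurement within the gene is at hand.

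Smtn, a cytoskeletal protein of contractile smooth muscle cells, read 1511 in wild type and 1792 on the array labelled null. This is 1.19-fold higher (log2 ratio 0.25), within the spread between probe sets. Its 1 probe set has an ID ending in _a_at, which in the maker's naming means that its probes match several transcripts of the same gene.

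Cald1 had 5 probe sets, of which 4 were measured. The brightest, 1424769_s_at, read 46674 in wild type and 56819 on the array labelled null, 1.22-fold higher (log2 ratio 0.28). Probe sets 1424768_at (5830 and 5696) and 1424770_at (8442 and 8311) differed by 1.02-fold, both slightly lower. Those 3 carry the same accession in the annotation. The dim probe set 1433147_at read 582 and 877, 1.51-fold higher (log2 ratio 0.59), where the 500 measured probe sets nearest in signal had a median of 0.45, and 1433146_at, which shares its accession, lay below the limit at 304 and 306. The SD between the 4 measured ratios was 0.30, and no Cald1 probe set was 2-fold apart. Which probe sets read the long smooth muscle form and which the short forms could not be read from the annotation, so the values are for Cald1 transcripts as a whole.

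The paralogs all read lower where they were measured, but by very different amounts. Cnn2, neutral calponin, is made in smooth muscle, epithelia, fibroblasts and blood cells. Its 1 probe set read 8571 in wild type and 8112 on the array labelled null, 1.06-fold lower (log2 ratio -0.08), and 38.3% of measured genes had a lower ratio.

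Cnn3, acidic calponin, is an actin regulator made in many tissues, among them brain and myoblasts. Its brightest probe set, 1455570_x_at, read 56055 in wild type and 32833 on the array labelled null, 1.71-fold lower (log2 ratio -0.77). The 5 others read 57316 and 29194 (1436836_x_at), 45926 and 33115 (1436759_x_at), 14950 and 7212 (1456380_x_at), 9068 and 4671 (1426724_at), and 2697 and 1836 (1438354_x_at). All 6 were lower on the array labelled null, with log2 ratios from -1.05 to -0.47, a median of -0.86 and an SD of 0.24, smaller than the pooled SD of 0.56. Only 1456380_x_at was 2-fold apart (2.07-fold). Of the 291 genes with at least 5 measured probe sets, 5.5% had all of them below 0. The ending _x_at, which 5 of the 6 carry, marks probe sets with probes that can also match other sequences. The probe set without that ending, 1426724_at, was 1.94-fold lower.

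Tagln2, a transgelin made in epithelia, leukocytes and many other cells, showed the lowest ratio among the members. Probe set 1439407_x_at read 10833 in wild type and 2630 on the array labelled null, 4.12-fold lower (log2 ratio -2.04), and 0.976% of measured genes had a lower ratio. At 1426529_a_at the signals were 5346 and 3016, 1.77-fold lower (log2 ratio -0.83). The measured probe sets thus had the same direction but lay 1.22 apart on the log2 scale, more than the SD of 0.79 for a difference between 2 probe sets of 1 gene. Of the 3343 genes with 2 measured probe sets, 22.1% had both below 0. The remaining probe set, 1420245_x_at, was dim, with signals of 201 and 105. Only the _x_at probe set put Tagln2 past 2-fold, and without probe sets of that ending its ratio was the 1.77-fold of 1426529_a_at.

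Tagln3, the neuronal transgelin, was below the low-signal limit on both arrays, at 285 in wild type and 181 on the array labelled null, and has no ratio here. With the limit at the 25th percentile its log2 ratio was -0.65.

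**Figure D2:**
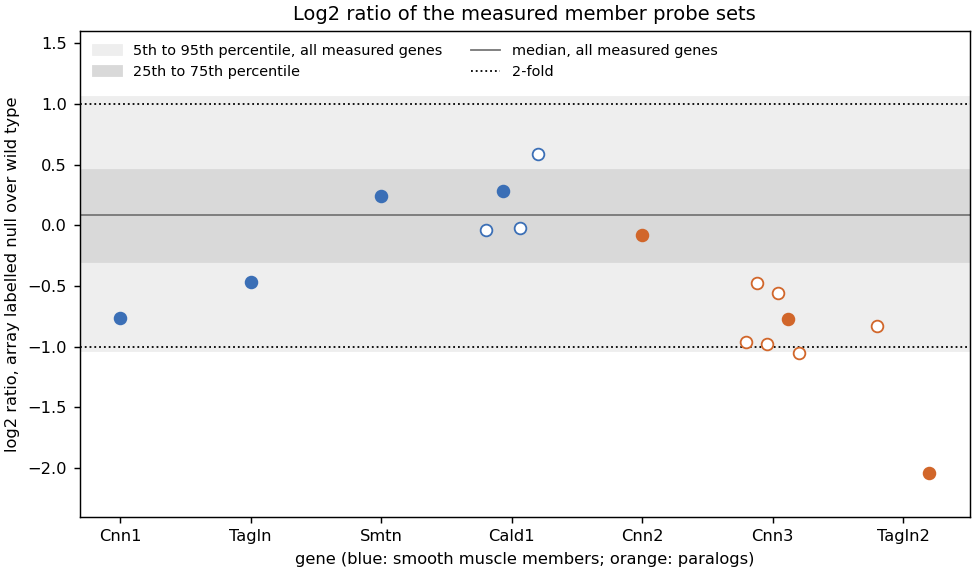
Log2 ratio of the array labelled null over wild type for the 16 measured member probe sets, by gene, with filled points for the probe set used for the gene, blue for smooth muscle members and orange for paralogs. The grey bands span the 25th to 75th and the 5th to 95th percentiles of the 13315 measured genes (-0.30 to 0.46 and -1.03 to 1.06), and only Tagln2 at -2.04 and a Cnn3 probe set at -1.05 fall below 2-fold.

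Smooth muscle members and paralogs were then set side by side. The median log2 ratio was -0.11 over the 4 smooth muscle members and -0.77 over the 3 measured paralogs, a difference of 0.66. The groups overlapped, since the smooth muscle members ran from -0.76 to 0.28 and the paralogs from -2.04 to -0.08. In the calponin family, smooth muscle Cnn1 and acidic Cnn3 had nearly the same ratio (-0.76 and -0.77), and Cnn2 lay 0.68 above Cnn1 and 0.69 above Cnn3. These differences are below the SD of 0.79 for a difference between 2 probe sets. In the transgelin family, Tagln lay 1.57 above Tagln2 at the brightest probe sets. At the other measured Tagln2 probe set, with a ratio of -0.83 against -0.47 for Tagln, the gap was smaller than that SD. The division into smooth muscle genes and paralogs therefore did not separate the members by ratio.

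The members were next compared with 24 other genes of the smooth muscle contractile apparatus and its regulation. All 24 were measured. The ratio was above 0 for 19, with 3 past 2-fold upwards and 1 downwards (median log2 ratio 0.59). Of all measured genes 43.4% were below 0, 6.01% passed 2-fold upwards and 5.36% downwards. These counts use the brightest probe set, and some of the 19 had other measured probe sets below 0. Tpm1, for example, had a log2 ratio of -0.24 as the median of its probe sets. With such medians for all genes, the list median was 0.41. Mylk, the myosin light chain kinase, read 2.83-fold higher at the brightest of its 3 probe sets, and the others gave 3.62-fold and 1.06-fold. Kcnma1, a calcium-activated potassium channel, was 2.36-fold higher, and Lmod1, smooth muscle leiomodin, at least 2.67-fold. Casq2, a calsequestrin shared with cardiac and slow skeletal muscle, was 10.5-fold lower. The log2 ratio of Kcnma1 was 0.66 as the median of its probe sets. Ranked together with these 24, Cnn1 had the second lowest and Tagln the fifth lowest ratio of 28 genes, while Smtn and Cald1 were at ranks 10 and 11 from the bottom. The other genes below 0 were Itga8 (-0.56), Pgm5 (-0.51), Ppp1r14a (-0.43) and Myl6 (-0.30), named after their values were seen.

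**Figure D3:**
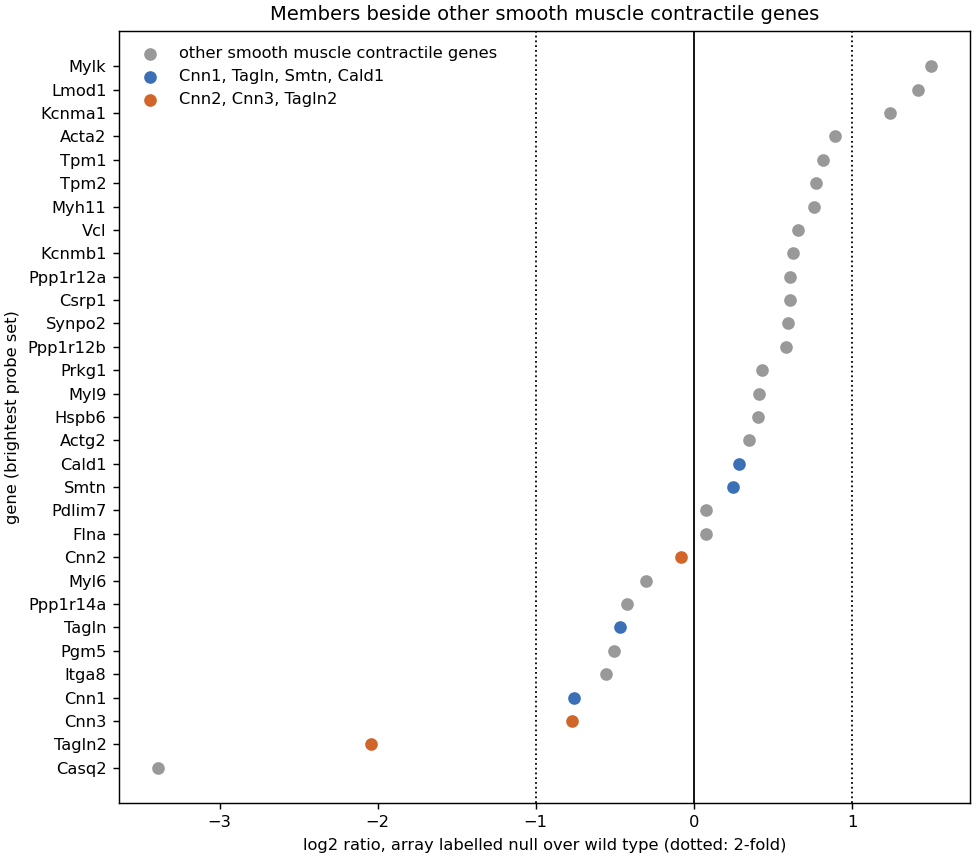
Log2 ratio of the array labelled null over wild type at each gene's brightest probe set, for the 24 other contractile genes (grey), the 4 smooth muscle members (blue) and the 3 measured paralogs (orange), in order of ratio, 1 array per genotype. Cnn1 and Tagln lie left of 0 at -0.76 and -0.47, whereas Mylk lies at 1.50 and 19 of the 24 grey points lie right of 0.

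The lower Cnn1 and Tagln signals stood beside higher signals of other smooth muscle markers. All 6 genes chosen as smooth muscle markers (Acta2, Actg2, Myh11, Mylk, Lmod1 and Myocd) were above 0, 3 of them at least 2-fold. Of all measured genes 43.4% were below 0 and 6.01% were at least 2-fold higher. The summed signal of the 6 was 285200 in wild type and 629300 on the array labelled null. All but Myocd are also among the 24 contractile genes above, so their count is not a separate result. That longer list also held 5 genes below 0. Acta2, smooth muscle alpha-actin, read 131127 and 242976, 1.85-fold higher. Quantile normalization, which forces the brightest signals of both arrays together, lowered the log2 ratio of Acta2 from 0.89 to 0.13 and that of Mylk from 1.50 to 0.69, both still above 0. Fewer cells of a type and less RNA per cell cannot be told apart in whole tissue.

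Regulators of the smooth muscle program showed no common direction. Of 17 listed genes, 14 were measured, 8 of them above 0 and 6 below (median 0.38). Among the 14, 3 were at least 2-fold higher and 2 at least 2-fold lower. Over all measured genes 43.4% were below 0, 6.01% passed 2-fold upwards and 5.36% downwards. Myocd, the coactivator myocardin, read 2607 in wild type and 6353 on the array labelled null, 2.44-fold higher. Its other probe set lay below the limit, at 54 and 70. The Notch ligand gene Jag1 was 2.61-fold higher by the probe set of strongest signal, but the other measured one had a log2 ratio of 0.25, and their median of 0.82 is below 2-fold. The Hedgehog-binding Hhip was 4.25-fold higher by that rule and had a log2 ratio of 1.12 as the median over measured probe sets. Of the lower genes, the growth factor receptor gene Pdgfrb was 2.71-fold lower. Serum response factor, Srf, and the myocardin relative Mrtfa, named after their values were seen, had log2 ratios of -0.15 and -0.11. Cnn1 and Tagln, known targets of this pathway, read lower on the array on which Myocd read higher, Tagln within the spread between probe sets. All 6 smooth muscle markers, Myocd among them, read higher there. Whether these ratios are linked was not tested.

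Actins, tropomyosins and troponins, the other proteins of the thin filament, were read next. Of 10 actin and tropomyosin genes, 2 passed 2-fold downwards and 0 upwards (median 0.18, which turned to -0.06 with quantile normalization and -0.21 when a gene's probe sets were summarised by their median). Over all measured genes 5.36% passed 2-fold downwards and 6.01% upwards. The lower pair of the list were the striated actins Acta1 (74.4-fold lower) and Actc1 (11.8-fold lower). Tpm1, whose product caldesmon binds along actin, was 1.76-fold higher at 1423721_at, the brightest, while its other probe sets ran from -2.65 to 0.24 on the log2 scale. Of the 8 troponin genes, which take the regulatory place of calponin and caldesmon on the striated thin filament, 7 were measured and all 7 passed 2-fold downwards (median -4.53). Tnnc2, Tnnt1, Tnnc1 and Tnni1 were at least 94.5-fold, 31.0-fold, 29.7-fold and at least 23.0-fold lower.

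Other genes with calponin homology or caldesmon-related domains, or smoothelin-like genes, gave 7 measured of 9 (median -0.31). Of the 7, 1 passed 2-fold downwards and 0 upwards, against 5.36% and 6.01% of all measured genes. Limch1, an activator of nonmuscle myosin with a calponin homology domain, read 9224 and 3071, a log2 ratio of -1.59, and its second measured probe set had -1.62. Lmo7 was 1.57-fold lower and Micall1 1.50-fold higher. The smoothelin-like gene Smtnl2 was 1.38-fold lower at one probe set and 1.20-fold higher at the other, and Smtnl1 was below the limit on both arrays.

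Markers of the other cell types that make the paralogs were read beside them. Summed signals in wild type and on the array labelled null were 328200 and 455700 for 7 fibroblast genes, 319400 and 409300 for 7 squamous epithelium genes, and 25180 and 31330 for 6 leukocyte genes. They were 28050 and 27920 for 6 pericyte genes, 4052 and 3492 for 5 endothelial genes, and 11650 and 8331 for the 7 neuron genes on the array. For 2 genes of interstitial cells of Cajal on the array they were 1906 and 2093. A sum is dominated by its brightest genes and was formed from the signals as deposited. Above 0 were 5 of 7 fibroblast genes, 3 of 7 epithelial, 5 of 5 measured leukocyte, 3 of 6 pericyte, 2 of 3 measured endothelial and 1 of 6 measured neuron genes, and both genes of interstitial cells. These lists are short, and over all measured genes 7535 were above 0 and 5780 (43.4%) below. No measured marker was at 0. The endothelial markers Pecam1 and Tie1, the leukocyte marker Cd68 and the neuron marker Uchl1 were below the limit on both arrays. Among these lists, only those of skeletal muscle, neurons and epithelium had medians below 0 (-6.22, -0.49 and -0.17). Of the 7 measured members, 5 were below 0 as well, namely Cnn1, Tagln, Cnn2, Cnn3 and Tagln2. The endothelial, pericyte and interstitial cell medians changed sign in some alternatives. The part of skeletal muscle or of any other cell type in the Cnn1, Tagln, Cnn3 and Tagln2 ratios was not tested.

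Promoter windows from RefSeq (GRCm38.p6, 250 bases before to 50 after a transcript start) were matched by symbol for 7 of the 8 members, all but Tagln, with 8 windows in all because Cald1 has 2. They are shown to set the members that read lower, Cnn1, Cnn3 and Tagln2, beside Cnn2, whose ratio was near 0. Each is printed 5′ to 3′ in the direction of the gene and ends before the first annotated base of the gene. Capitals mark the CArG box and CCAAT, the latter also where it reads ATTGG, which is CCAAT on the opposite strand. The windows printed are chr9:22099003-22099220 (plus strand) for Cnn1, chr3:121426291-121426540 (plus strand) for Cnn3, chr1:172499996-172500245 (plus strand) for Tagln2 and chr10:79988350-79988599 (plus strand) for Cnn2.
Cnn1: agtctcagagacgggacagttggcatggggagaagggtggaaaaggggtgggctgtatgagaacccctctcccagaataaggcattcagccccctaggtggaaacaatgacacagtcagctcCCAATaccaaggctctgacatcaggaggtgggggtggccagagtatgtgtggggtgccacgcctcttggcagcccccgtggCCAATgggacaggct
Cnn3: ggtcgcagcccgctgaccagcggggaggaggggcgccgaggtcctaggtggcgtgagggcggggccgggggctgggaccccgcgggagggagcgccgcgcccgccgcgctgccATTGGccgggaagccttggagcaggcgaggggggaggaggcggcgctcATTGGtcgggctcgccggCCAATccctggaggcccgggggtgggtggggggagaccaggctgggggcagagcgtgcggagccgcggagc
Tagln2: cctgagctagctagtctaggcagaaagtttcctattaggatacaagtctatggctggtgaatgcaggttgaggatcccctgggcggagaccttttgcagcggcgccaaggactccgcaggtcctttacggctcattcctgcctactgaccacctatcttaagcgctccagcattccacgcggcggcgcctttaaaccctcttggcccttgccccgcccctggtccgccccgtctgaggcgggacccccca
Cnn2: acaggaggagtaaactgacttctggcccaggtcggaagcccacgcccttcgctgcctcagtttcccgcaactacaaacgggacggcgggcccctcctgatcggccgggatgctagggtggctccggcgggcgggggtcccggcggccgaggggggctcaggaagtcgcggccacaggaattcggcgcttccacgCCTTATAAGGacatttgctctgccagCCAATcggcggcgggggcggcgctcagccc

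Both strands of the 8 windows were searched for the CArG box. The same was done for CANNTG and GGGCGG. The short runs TATAAA and CCAAT were searched too. A CArG box was found in 1 of the 8 windows, that of Cnn2, as CCTTATAAGG from base -56 to -47 before the start, against 1.63% of 32851 promoter windows of the same length. It does not overlap the CCAAT of that window at -30 to -26. CCAAT was present in the windows of Cnn1 (2 matches), Smtn (2), Cnn2 (1), Cnn3 (3), Tagln3 (1) and the first of Cald1 (1), against 37.4% of all windows, and in neither the Tagln2 window nor the second Cald1 window. GGGCGG was found 3 times in Tagln2, 3 times in Cnn2, 2 times in Smtn and once each in Cnn3 and the first Cald1 window (35.7% of all windows). CANNTG, the E-box form that Myf5 and Myod1 can bind, occurred in the windows of Cnn1, Smtn, Cnn2 and Cald1 (both) and not in those of Cnn3, Tagln2 and Tagln3 (72.3% of all windows). TATAAA was found in the second Cald1 window alone (13.6% of all windows). GC content was 78.3% in Cnn3, 70.7% in Cnn2, 61.3% in Tagln2, 59.3% in Cnn1, 57.3% in Tagln3, 56.3% in Smtn, and 50.3% and 47.0% in the Cald1 windows, against a median of 52.7% over all windows. A match is a run of letters in this window and not a bound site, and elements outside the window, such as in introns, were not searched.

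Because bright and dim probe sets can be scaled differently, each member was also set against the 500 measured probe sets nearest to it in signal. The medians of these neighbours lay between -0.14 and -0.01 on the log2 scale for the probe sets used for the genes. Relative to them the log2 ratios were -0.64 for Cnn1, -0.36 for Tagln, -0.73 for Cnn3 and -1.94 for Tagln2, and 0.26 for Smtn, 0.30 for Cald1 and 0.06 for Cnn2. Cnn1, Tagln, Cnn3 and Tagln2 stayed below 0 and Smtn above 0 in all 9 alternatives that give a ratio. Cnn2 crossed 0 in 3 of them (0.02 with loess, 0.07 with quantile normalization and 0.06 against its neighbours), and Cald1 in 1 (-0.02 without probe sets ending in _x_at or _s_at).

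**Figure D4:**
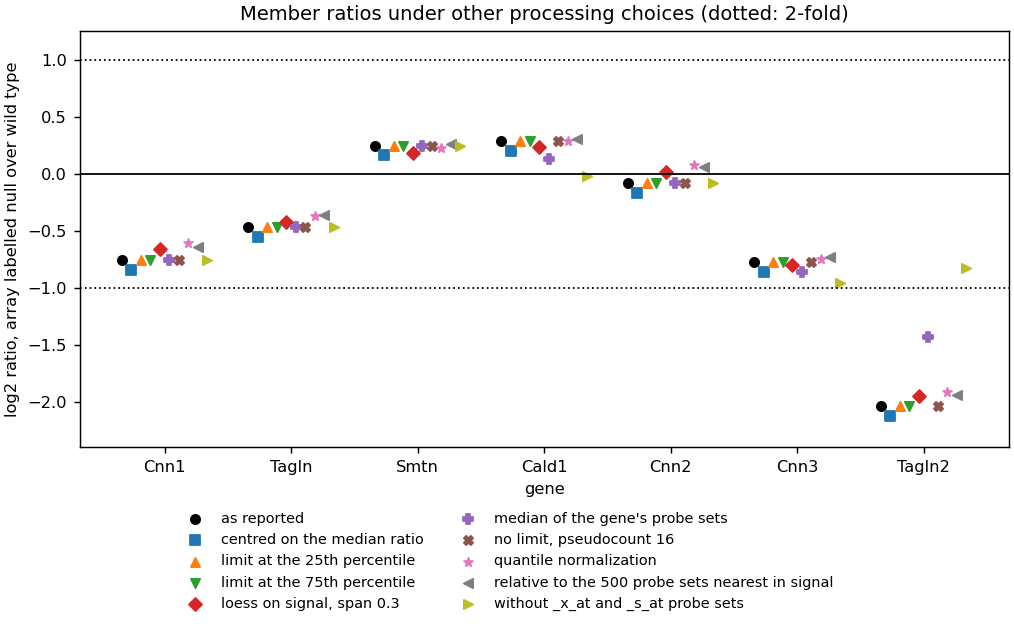
Log2 ratio of the array labelled null over wild type for each of the 7 measured members as reported (black) and under 9 other processing choices (coloured symbols), 1 array per genotype. Cnn1, Tagln and Cnn3 stay between -0.96 and -0.36, and Tagln2 runs from -2.13 to -0.83 with the choice of probe set.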

How the data were processed

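Gene expression was measured on 2 Affymetrix arrays, 1 per genotype. The authors deposited linear signal intensities from MAS5, according to the submitters' processing notes, from 6 µg of total RNA per sample per the labels' protocols. No MAS5 version or setting was stated there. The table has no detection calls, and after trimming 2% of probe sets at each end the means were 1479 and 1477. The medians were further apart, at 393.5 in wild type and 580.6 on the array labelled null. At or above the limit were 44.6% of probe sets in wild type and 55.4% on the array labelled null. Dim probe sets thus tended to read higher on the latter, and the shares over all measured genes include them. Of 45037 non-control probe sets, 34945 have 1 symbol, 932 several and 9160 none in GEO's platform annotation, updated by Entrez ID. A gene took its probe set of highest mean signal. Precision is limited by having 1 array per genotype.

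The text names all members, Myf5 and Myod1, and in each list at most the 4 measured genes of largest ratio, some left out for length. Outside this rule are the genes marked as named after their values were seen, the smooth muscle markers listed in full, and the genes named as below the limit. With 2 arrays, no gene was sought for a like pattern. The members and lists were chosen with earlier results of these data known. Alternatives changed the scaling (quantile normalization, loess with a span of 0.3, centring on the median ratio), the limit (25th percentile, 75th percentile, or none with 16 added to each signal) and the probe sets (their median per gene, or only those not ending in _x_at or _s_at), or used a 4-fold threshold. The comparison with 500 neighbours in signal was added after seeing the data. Python 3.11.15, pandas 2.3.3 and statsmodels 0.14.6 were used.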

Additional observations from a re-analysis of the deposited data

How the results depend on the processing

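No paired analysis was possible because each genotype has 1 array. In all, 103 results were put under up to 10 alternatives. They include counts, which have no sign, and ratios or medians below 2-fold, whose changes of sign were not counted here. Of the ratios and medians at least 2-fold apart, 0 changed sign. For Tagln2 the log2 ratio was -1.43 with the median of its probe sets and -0.83 without probe sets ending in _x_at or _s_at, which left 0 members 2-fold lower. That setting also left 0 contractile genes 2-fold lower, since it drops Casq2. With a 4-fold threshold 0 contractile genes were higher, and 1 regulator was higher and 0 lower. Regulators 2-fold higher numbered 5 with no limit, and 1 regulator was lower under loess, under quantile normalization and under a 75th percentile limit. Over all genes, a 25th percentile limit gave 1232 lower and 2742 higher, a 75th percentile limit 383 and 148, no limit 1704 and 3548, and the 4-fold threshold 142 and 21, while loess gave 449 higher. The median of the smooth muscle members ran from -0.25 without _x_at and _s_at probe sets to -0.05 against the neighbours in signal, and that of the contractile genes stayed above 0 (0.41 with the median of probe sets). The other genes and the remaining lists were counted separately under each alternative, so 1 result can count several times. On that count 36 ratios or medians moved by more than the SD between probe sets and 20 counts changed by over 1.5 times. Signal near the limit bounds what can be said of Tagln3 and of the dimmest Cald1 and Tagln2 probe sets.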
